A study of Canis lupus familiaris with 12 samples.

Results

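SPARC and CALD1 were each read by 1 spot on 2-colour cDNA arrays that compared MDCK cells carrying Snail, Slug or E47 with MDCK-CMV control cells. Both were chosen by gene symbol from a table of 13056 probes, of which 8047 carry a single symbol for 4325 genes in all, because their ratios differed between the 2 numbered samples of the Slug transfectant; their levels are therefore given as a description, with no test. MDCK is an epithelial cell line from dog kidney, and the probes bear the symbols of human genes. The arrays were made from total RNA. For every transfectant the labels number a sample 1 and a sample 2, and RNA of each went onto 2 arrays, with the transfectant in Cy5 and the control in Cy3 on one and the dyes exchanged on the other, so there were 12 arrays, 4 for each transfectant. The control of every array is MDCK-CMV. The labels give neither the construct nor the number of clones behind a sample, and do not say that samples 1 and 2 were separate cultures. Every p-value below therefore measures only the spread between these samples, which may be technical.

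SPARC is a secreted calcium-binding glycoprotein that binds collagens and is made by fibroblasts, bone and remodelling tissues; it belongs to the matricellular proteins, which modulate the contact of cells with the matrix without being structural fibres themselves. CALD1 encodes caldesmon, which binds actin, tropomyosin, myosin and calmodulin and restrains the actomyosin ATPase, with a long form in smooth muscle and a short form in other cells. Snail and Slug, zinc finger factors, and E47, a helix-loop-helix factor, are known as repressors of CDH1, the gene of E-cadherin, and epithelial cells that express them can pass through an epithelial to mesenchymal transition, in which junction genes fall and matrix and contractile genes rise.

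The values are log2 ratios of the 2 channels, and which channel is the numerator is not stated. The 5 arrays of Snail 2, of Slug 1 and of E47 2 with the transfectant in Cy5 were multiplied by -1, and the other 7 were kept, so that positive values read transfectant over control. This direction is assumed. It does not follow the dyes in the labels and was set so that CDH1 lies below the control; a low CDH1 is then no finding. As deposited, each Slug 1 array correlated negatively with each Slug 2 array over all probes (r between -0.60 and -0.40, 4 pairs), while the Slug 1 arrays correlated with each other at 0.65 and the Slug 2 arrays at 0.31. Of 149 genes that lay at least 2-fold from the control in both Slug samples, 149 had opposite signs in the samples as deposited. After turning, 45 of 48 values of the first 2 CDH1 clones lay below -1, and on the Slug arrays they lay between -4.64 and -2.83, while the remaining clone lay between -1.37 and 0.91 over all arrays. With the sign of a whole transfectant exchanged, its higher and lower genes exchange, but the distance between its samples keeps its size.

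Arrays carried values for 10654 to 12982 probes, and both members had a value on all 12. The number of arrays limits the precision. Markers of other cell types were few on the array: of the smooth muscle markers ACTA2 and MYH11 were tested, and their mean log2 ratios lay between -0.30 and 0.37 without passing in any transfectant. Over all genes tested with limma in Slug (adjusted p under 0.05), 12.2% rose and 9.62% fell. Of 6 leukocyte markers 2 were tested, and PTPRC (-0.66) and ITGAX (-0.56) fell in Slug. Of 6 endothelial markers, 5 were tested in Slug, of which TEK (0.62) and ENG (1.05, with arrays from -0.19 to 1.66) rose. The other tested endothelial markers, VWF (0.37), PECAM1 (-0.10) and KDR (-0.07), did not pass there. Without Slug sample 1 these 4 calls were lost (PTPRC at -0.50, ITGAX at -0.30, TEK at 0.38 and ENG at 0.74), and that of ITGAX also without either Snail sample. A ratio does not show whether a marker was expressed, and the part of other cells in the results was not tested. Of the epithelial markers, CDH1 aside, DSP, a desmosome gene, fell in all 3 transfectants and KRT7 in Snail and E47. KRT19, which was tested in Slug alone, fell there. The other tested epithelial markers did not pass. Over all genes 5.07% fell in Snail and 1.49% in E47. The call of DSP in E47 was lost without E47 sample 1 (-0.71) or 2 (-0.63), and that of KRT7 in Snail without Snail sample 1 (-0.98) or 2 (-1.02).

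SPARC, the matrix glycoprotein, stood far above the control on all 4 Snail arrays and all 4 E47 arrays. In Snail its log2 ratio was 5.32 and 5.15 in sample 1 and 5.64 and 5.32 in sample 2, with the transfectant in Cy5 and then in Cy3. In E47 it was 5.25 and 4.76 in sample 1 and 4.29 and 4.46 in sample 2. On each of these 8 arrays it was the probe with the largest or the second largest ratio in size. The sample means gave 5.36 ± 0.17 (SD, n = 2 samples) in Snail, a 41.1-fold higher level, and 4.69 ± 0.44 in E47, a 25.8-fold higher level. The 2 Snail samples lay above both E47 samples.

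In Slug the samples fell apart. Sample 1 had SPARC at 4.57 and 3.78, a mean of 4.17 or 18.1-fold, close below the lowest E47 sample (4.38). Sample 2 had -0.59 and -0.74, a mean of -0.67, which is 1.59-fold below the control. In each sample the dye partners lay close together, at SDs of 0.56 and 0.11. By size SPARC was probe 4 and probe 17 of the Slug 1 arrays, but probe 3950 and probe 2382 of the Slug 2 arrays. The mean of the samples, 1.75 ± 3.42 (SD, n = 2), therefore describes neither of them, and Slug has no place in the order of the levels that goes beyond its spread. As deposited, before any array is turned, SPARC was at -4.57, -3.78, -0.59 and -0.74 on the 4 Slug arrays, all on the same side of 0. That it lay on opposite sides in the samples thus rests on the turning of Slug 1, whereas a large ratio in Slug 1 and a small one in Slug 2 do not.

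CALD1, the caldesmon gene, was higher than in the control by a smaller factor. Its log2 ratio in Snail was 2.75 and 1.81 in sample 1 and 3.37 and 3.04 in sample 2. In E47 it was 2.43 and 2.72 in sample 1 and 2.60 and 1.29 in sample 2. All of these 8 values were above 0, and CALD1 was among the 216 largest ratios on each of those arrays. The means were 2.74 ± 0.65 (SD, n = 2; 6.68-fold) in Snail and 2.26 ± 0.45 (4.79-fold) in E47. These neighbours did not differ beyond their spread: the samples were at 2.28 and 3.20 in Snail and at 2.57 and 1.94 in E47, and the ranges overlap.

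In Slug sample 1 the CALD1 spot gave 0.04 with the transfectant in Cy5 and 3.88 with the transfectant in Cy3. The first of these is close to 0, and the second is the highest CALD1 ratio of the series. In Slug sample 2 it gave -0.86 and -0.41. The sample means were 1.96 and -0.64, and their mean was 0.66 ± 1.83 (SD, n = 2). The Slug 1 mean therefore averages values that were 3.84 apart, and only 1 of its arrays shows a rise.

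**Figure D1:**
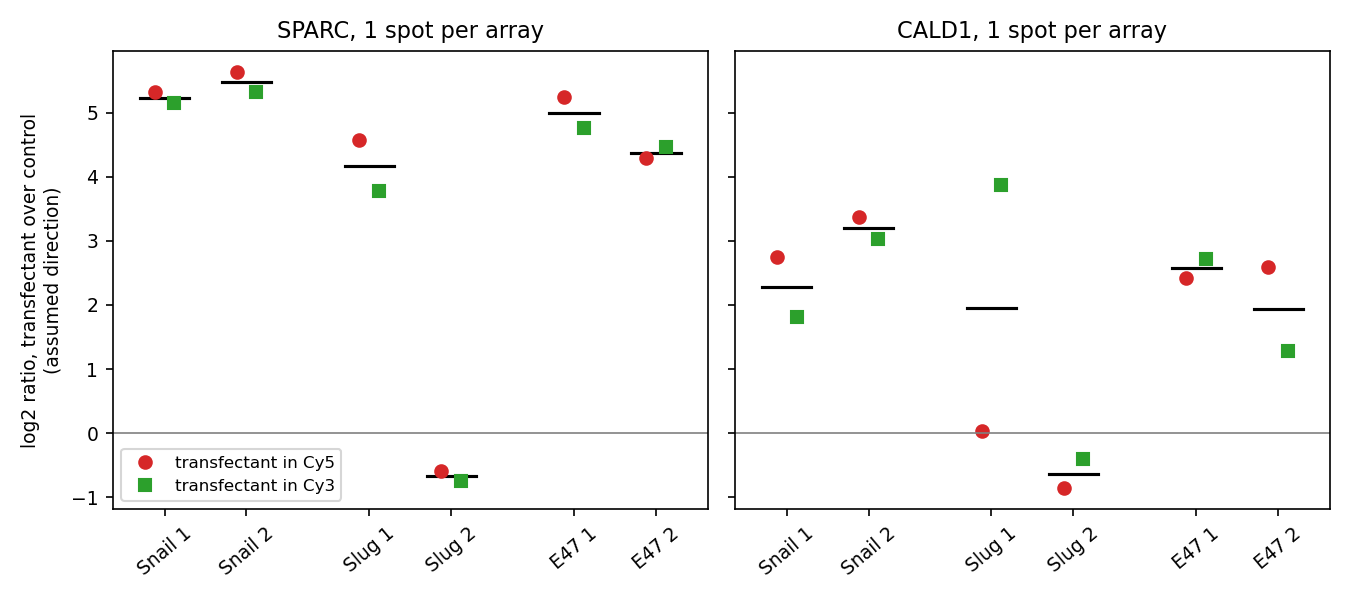
Log2 ratio of transfectant over control in the assumed direction (vertical axis) for the SPARC spot (left) and the CALD1 spot (right) in the 6 numbered samples; circles are arrays with the transfectant in Cy5, squares those with it in Cy3, and bars are the means of the 2 arrays. SPARC lies between 3.78 and 5.64 on all arrays but those of Slug 2, at -0.59 and -0.74, while CALD1 in Slug 1 is at 0.04 on one array and 3.88 on the other.

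Over all genes, samples 1 and 2 of a transfectant were close. The median gene differed by 0.225 (log2) between the Snail samples, by 0.206 between the Slug samples and by 0.18 between the E47 samples. In Slug 2.94% of 4053 genes lay at least 2-fold apart in either direction, and 1.65% lay at least 2-fold higher in sample 1. SPARC, at 4.84, was the gene farthest apart of all, a 28.6-fold distance, and CALD1, at 2.60, was number 3; since both were chosen for this distance, nothing is read from their place. In Snail, where 1.49% of 3768 genes were 2-fold apart, SPARC was 0.25 lower and CALD1 0.92 lower in sample 1 than in sample 2. The former is near the difference of the median gene and the latter is the 78th largest. In E47, where 0.908% of 3966 genes were 2-fold apart, sample 1 was higher by 0.62 for SPARC and by 0.63 for CALD1. Neither gene reached a 2-fold distance in Snail or E47.

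COL15A1, a collagen of basement membrane zones, stood between them in second place, with a log2 ratio of 3.55 and 3.57 on the Slug 1 arrays and 1.64 and -0.05 on the Slug 2 arrays, a distance of 2.77. ZNF618, a zinc finger gene (2.25), and GOLGA1, a Golgi protein (2.15), followed. On the other side, higher in sample 2, were PSMG2, a proteasome assembly chaperone (-2.32), CCDC88C (-2.09), TFPT (-2.05), AP3M1, a subunit of a vesicle adaptor (-1.90), and ATP6V1A, a subunit of the vacuolar proton pump (-1.88). In Snail and E47, where SPARC was high, the samples of GOLGA1 lay between -0.12 and 0.81, and those of COL15A1 between 0.00 and 1.00. Of 3537 genes with values in all 6 samples, 4 lay at least 2-fold above the control in both Snail samples, both E47 samples and Slug 1. Besides SPARC and CALD1 these were COL1A2, a chain of type I collagen, and SCD5, a fatty acid desaturase, both named after their values were seen. COL1A2 had 1.25 and 1.94 in Slug samples 1 and 2, and SCD5 had 2.13 and 2.46, so neither was below the control in Slug 2.

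**Figure D2:**
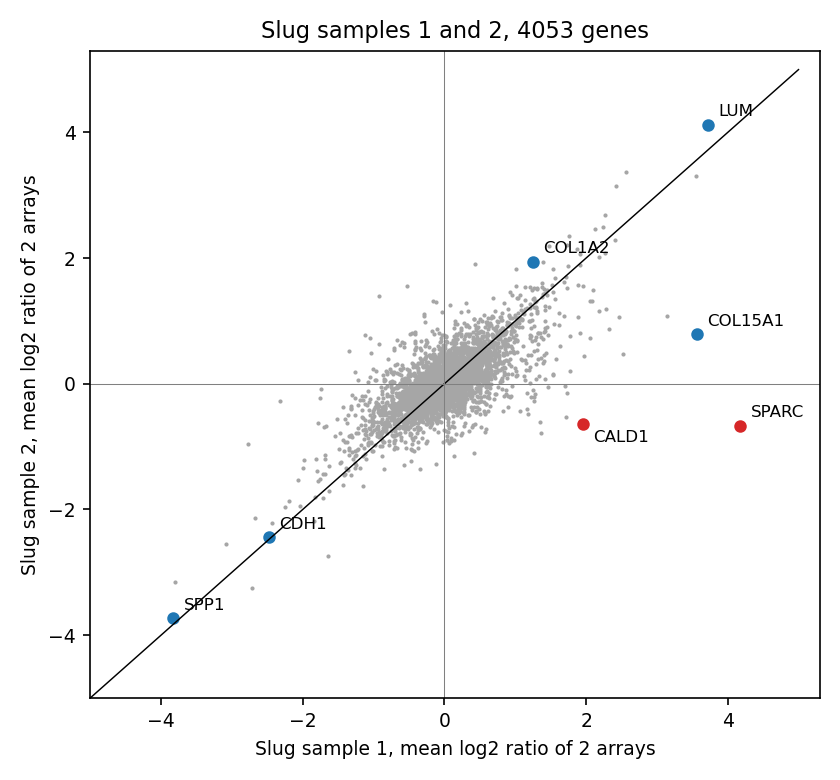
Mean log2 ratio of each of 4053 genes in Slug sample 1 (horizontal axis) and Slug sample 2 (vertical axis), in the assumed direction, with the line of equal values. LUM, CDH1 and SPP1 lie near the line and COL1A2 (1.25 and 1.94) lies above it, whereas SPARC (4.17 and -0.67), CALD1 (1.96 and -0.64) and COL15A1 (3.56 and 0.79) lie below it.

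The distance of CALD1 rests on the Slug 1 array with the transfectant in Cy3. With the arrays that had the transfectant in Cy5 alone, Slug 1 and Slug 2 were 0.90 apart, less than 2-fold, and the Slug mean was -0.41. With those in Cy3 alone they were 4.29 apart. Each sample has 1 array of each dye, so the dye and the single array cannot be told apart. SPARC, by contrast, was 5.16 apart on the Cy5 arrays and 4.52 apart on the Cy3 arrays. Leaving out the Slug 1 array with the transfectant in Cy5, an alternative chosen after the values were seen, put CALD1 at a distance of 4.52 and SPARC at 4.44.

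The gap between the dye partners of CALD1 was rare for a spot in Slug 1. Over 11261 probes the median gap there was 0.313, and 4 probes, CALD1 included, were at least 3.84 apart. In E47 sample 2 the CALD1 partners were 1.31 apart, with the higher value in Cy5 and not in Cy3 as in Slug 1, a gap that 18 of 11844 probes reached. SPARC had no such gap: its largest was 0.80 in Slug 1, which 12.3% of probes reached. Neither member has a second spot. For 2093 clones with 2 spots on the array, the spots of a clone had a median distance of 0.189 to 0.460 on an array, and 23 of 22811 such pairs were 3 or more apart. On the Slug 1 arrays this was 1 of 2062 pairs with the transfectant in Cy5 and 0 of 1871 in Cy3, while the Slug 2 array in Cy5 had the most, 11. A clone of ACTN1, alpha-actinin, with 50 spots had an SD over its spots of 0.80 and 0.47 on the Slug 1 arrays, within a range of 0.21 to 1.03 over all arrays. Of the first 2 CDH1 clones, each with 2 spots, 3 of 48 values were not below -1. On the E47 1 array with the transfectant in Cy3 these were 0.48 (partner spot -3.31) and -0.75 (partner spot -4.035). On the Snail 2 array with the transfectant in Cy3 it was 0.20 (partner spot -4.29). These gaps lie between 2 spots of 1 array, whereas that of CALD1 lies between 2 arrays. Its cause in CALD1 was not tested.

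**Figure D3:**
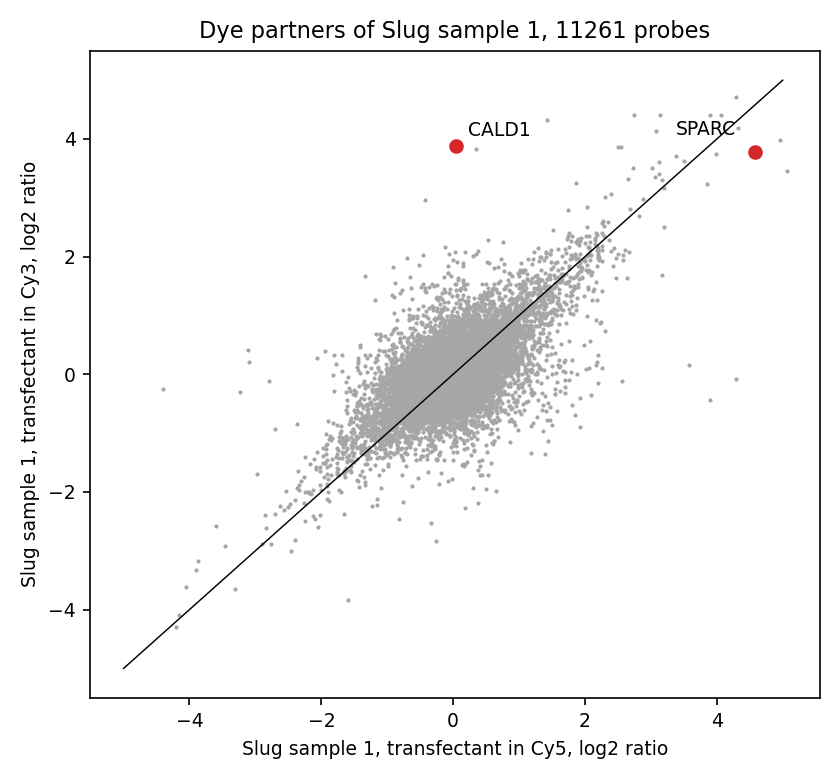
Log2 ratio of 11261 probes on the 2 arrays of Slug sample 1, with the transfectant in Cy5 (horizontal axis) and in Cy3 (vertical axis), and the line of equal values. SPARC (4.57 and 3.78) lies near the line, while CALD1 (0.04 and 3.88) lies 3.84 from it in the vertical direction.

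Likeness of pattern was measured over the 12 arrays as the cosine between ratio profiles, where 1 means proportional ratios; it stays the same when an array is turned. It was computed for 917 other genes with values on all arrays and a root mean square log2 ratio of at least 0.5, and it is a description: all arrays share the control, and a cosine mostly reflects the arrays on which a gene is far from 0. SPARC and CALD1 had a cosine of 0.91 with each other, where the median gene had 0.06 with SPARC and 0.03 with CALD1. CALD1 was in place 5 for SPARC and SPARC in place 3 for CALD1. Both were chosen for their values on these same arrays, so nothing is read from this likeness.

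Nearest to SPARC was WIPF1, a partner of the actin nucleation promoting WASP proteins, with 0.96. Its 4 spots gave 0.61 and 1.22 in the Snail samples, 0.65 and 0.91 in the E47 samples, 0.60 in Slug 1 and -0.05 in Slug 2. The Slug arrays entered the cosine by which WIPF1 was picked, so its Slug values are no further likeness to SPARC. ANXA5, the phospholipid-binding annexin V (0.92), CHN1, a GTPase activator for Rac (0.92), and LAMTOR4, a lysosomal scaffold (0.91), came next. ANXA5 had 0.54 and 0.52 in the Slug samples and thus did not separate them. CHN1 had 0.90 and 0.15, and LAMTOR4 0.50 and 0.34. Most opposed to SPARC were CYB5R4, a reductase (-0.95), OSTF1 (-0.93), RGS2, a regulator of G protein signalling (-0.93), TIMP3, an inhibitor of metalloproteinases (-0.93), and KRT7, a keratin of simple epithelia (-0.93). TIMP3 was at -1.30 and -1.21 in Snail, -0.65 and -0.67 in E47, -0.52 in Slug 1 and 0.13 in Slug 2. KRT7 was at -0.42 in Slug 1 and 0.06 in Slug 2, against -0.98 to -1.43 in the other samples. CYB5R4 had -0.44 and -0.09 in the Slug samples and OSTF1 -0.68 and -0.07, whereas RGS2 was far below the control in both, at -2.68 and -2.13.

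For CALD1 the nearest were BTG3, an antiproliferative gene (0.94), POGLUT3 (0.91), SPARC itself, WIPF1 (0.91) and MAP7D3, a microtubule-associated protein (0.86). POGLUT3 had 0.98 and 1.14 in Snail, 0.98 and 0.92 in E47, 0.39 in Slug 1 and -0.69 in Slug 2. BTG3 had 1.15 in Slug 1 and 0.22 in Slug 2, and between 0.80 and 1.14 in the other samples. MAP7D3 had 0.35 and 0.42 in the Slug samples and did not separate them. Most opposed were TXLNG (-0.95), CCNC, cyclin C (-0.91), TNFRSF21, a death receptor (-0.90), TWF1, the actin monomer-binding twinfilin (-0.90), and RAB10, a GTPase of membrane traffic (-0.90). TWF1 was at -0.58 in Slug 1 and 0.03 in Slug 2, and between -1.32 and -0.54 in Snail and E47. TXLNG had -0.41 and -0.09 in the Slug samples, CCNC -0.45 and 0.00 and RAB10 -0.40 and -0.10, while TNFRSF21 had -0.29 and -0.23 and did not separate them.

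Among the other genes of the matrix and of the actin system, COL15A1 was the only tested list gene farther apart between the Slug samples than CALD1. The counts of genes 2-fold apart are to be set beside the 2.94% of all genes, and 0 in a list of 12 or 13 genes is near that share and no result about the list. Of 13 further SPARC family and matricellular genes, 0 were 2-fold apart, and they lay between -0.33 and 0.58. Of 20 genes of collagens and collagen handling, 2 were, COL15A1 and PLOD2, a collagen lysyl hydroxylase (1.70 in sample 1 and -0.04 in sample 2). Of 31 genes of the actin, tropomyosin and myosin list, 2 were, TLN1 (2.18 and 1.16) and ACTN1 (1.77 and 0.75), on the same side of 0 in both samples. The TLN1 arrays of sample 2 were at 0.02 and 2.30, so its distance rests on the lower of them. Of 8 epithelial markers, 2 were 2-fold apart: EPCAM, an epithelial adhesion molecule, had -2.78 in sample 1 and -0.96 in sample 2, and KRT19 had -1.64 and -2.75. The highest EPCAM array, in sample 2, was at -0.11, so the -0.96 averages arrays that lay far apart. Of 12 mesenchymal markers 0 were 2-fold apart. Their levels in Slug went in both directions: FN1, the matrix protein fibronectin, had 1.87 and 2.14 in the samples and TWIST1, a transcription factor of the transition, 1.48 and 2.19, whereas MMP14 had -1.11 and -0.82, PDGFRA -0.86 and 0.04, CDH11 -0.20 and 0.07 and THY1 0.04 and -0.08.

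Against the control, tested with limma over all genes (Benjamini-Hochberg adjusted p under 0.05), 81 of 3768 genes rose (2.15%) and 191 fell (5.07%) in Snail, 495 of 4053 rose (12.2%) and 390 fell (9.62%) in Slug, and 151 of 3966 rose (3.81%) and 59 fell (1.49%) in E47. The list counts below are to be set beside these shares. In the SPARC family and matricellular list, 1 of 12 rose and 1 fell in Snail, 3 of 13 rose and 1 fell in Slug, and 1 of 13 rose and 2 fell in E47. The list medians were 0.00, 0.15 and -0.04, against -0.05, 0.02 and 0.01 for all genes. CCN2, a secreted factor of the matrix, rose in Slug by 1.17 ± 0.13 (SE, n = 2; adjusted p = 0.0016), in E47 by 1.06 ± 0.13 (adjusted p = 0.0050) and in Snail by 0.60 ± 0.13 (adjusted p = 0.0336). CCN1, its relative, rose by 1.44 ± 0.13 in Slug (adjusted p = 8.08e-04) and THBS3, a thrombospondin, by 0.57. SPP1, osteopontin, had -3.25 ± 0.28, -3.78 ± 0.28 and -3.02 ± 0.28 in Snail, Slug and E47 and so moved opposite to SPARC in Snail and E47 (adjusted p = 0.0017 and 0.0015). TGFBI was at -0.55 in E47. The CCN2 call was lost in Snail without sample 1 (0.75) or 2 (0.44) of Snail, and without either E47 sample or the Slug 1 array in Cy5, which leave its value at 0.60. In E47 it was lost without sample 1 (1.00) or 2 (1.12). TGFBI lost its call in E47 without E47 sample 1 (-0.63) or 2 (-0.46), and without either Snail sample or that Slug array, and THBS3 without Slug sample 1 (0.35).

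Among collagens and collagen handling genes, 3 of 19 rose and 1 fell in Snail, 6 of 20 rose and 0 fell in Slug, and 4 of 19 rose and 0 fell in E47. The list medians were 0.22, 0.15 and 0.09. COL1A2 rose in all 3 transfectants, by 1.99 ± 0.23 (SE, n = 2; adjusted p = 0.0037) in Snail, 1.60 ± 0.23 (adjusted p = 0.0037) in Slug and 3.02 ± 0.23 (adjusted p = 8.34e-04) in E47. SERPINH1, the collagen chaperone, rose by 0.97, 0.96 and 0.75 (adjusted p = 0.0071, 0.0041 and 0.0255). LUM, the collagen-binding proteoglycan lumican, rose by 3.92 ± 0.26 in Slug (adjusted p = 4.25e-04), with 3.73 and 4.12 in the samples, by 2.15 in Snail, and was at 0.25 in E47. Its difference between Slug and E47 was 3.68 ± 0.36 (adjusted p = 0.0144), a call that held with any 1 sample left out. PLOD1, a collagen lysyl hydroxylase, rose by 0.89 in Slug, and P4HB, a subunit of prolyl hydroxylase, by 0.69 in Slug and 0.73 in E47. COL9A2 rose by 0.90 in E47, and BGN, biglycan, fell to -1.03 in Snail. Without Snail sample 2 the calls of COL1A2 (1.87), SERPINH1 (0.80) and BGN (-0.86) in Snail were lost. Without Slug sample 1 those of PLOD1 (0.77), P4HB (0.65) and COL15A1 (0.79) in Slug were lost. In E47, SERPINH1 (0.91 and 0.59), P4HB (0.64 and 0.82) and COL9A2 (1.05 and 0.76) lost theirs without sample 1 or 2.

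Among the genes of actin filaments, tropomyosin and myosin, with which caldesmon works, 2 of 30 rose and 2 fell in Snail, 9 of 31 rose and 2 fell in Slug, and 2 of 29 rose and 0 fell in E47, with medians of -0.12, 0.22 and 0.09. Tropomyosin and calmodulin genes were not analysed here, so of the direct partners of caldesmon only actin genes and the myosin gene MYH11 were read. VCL, vinculin of focal adhesions, rose in all 3, by 0.66 ± 0.14 (SE, n = 2; adjusted p = 0.0306) in Snail, 0.76 ± 0.14 (adjusted p = 0.0085) in Slug and 1.24 ± 0.14 (adjusted p = 0.0034) in E47. In Slug the largest rises were those of TLN1, talin (1.67 ± 0.22, adjusted p = 0.0026), ACTN1 (1.26 ± 0.22, adjusted p = 0.0066), MSN, the membrane linker moesin (1.24 ± 0.28, adjusted p = 0.0189), and PXN, paxillin (0.93 ± 0.21, adjusted p = 0.0196). The TLN1 arrays of Slug sample 2 were at 0.02 and 2.30, so the lower of them shows no rise. With the arrays that had the transfectant in Cy3 alone, TLN1 was at 1.12 in Slug and its call was lost. MSN rose by 1.33 in Snail (adjusted p = 0.0304), with 0.70 and 1.96 in the samples. ARPC1B, a subunit of the actin-nucleating Arp2/3 complex, had -1.06 ± 0.12 in Snail and 0.93 ± 0.12 in Slug, a difference of -1.98 ± 0.18 (adjusted p = 0.0032), which also held with any 1 sample left out. ROCK2, a kinase that drives contraction, was at -0.74 in Snail. ACTA1, a muscle actin, rose by 0.60 in E47, and RHOB (-0.43) fell in Slug. CALD1 stood at a larger distance from the control in Snail and E47 than any tested gene of the list, whose means reached 1.33 in Snail and 1.24 in E47. It was chosen with its values known, so nothing is read from this order. Calls were lost for VCL in Snail without Snail sample 1 (0.65) or 2 (0.67) or without the Slug 1 array in Cy5 (0.66), and in Slug without Slug sample 1 (0.74). MSN lost its call in Snail without sample 2 (0.70) and in Slug without sample 1 (1.41) or 2 (1.06), PXN in Slug without sample 1 (0.46), and ARPC1B in Snail without sample 2 (-0.99). ROCK2 (without Snail sample 1 at -0.42, without sample 2 at -1.06), ACTA1 (without E47 sample 1 at 0.48, without sample 2 at 0.72) and RHOB (without Slug sample 1 at -0.34, without sample 2 at -0.53) also lost theirs when a sample of another transfectant was left out.

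**Figure D4:**
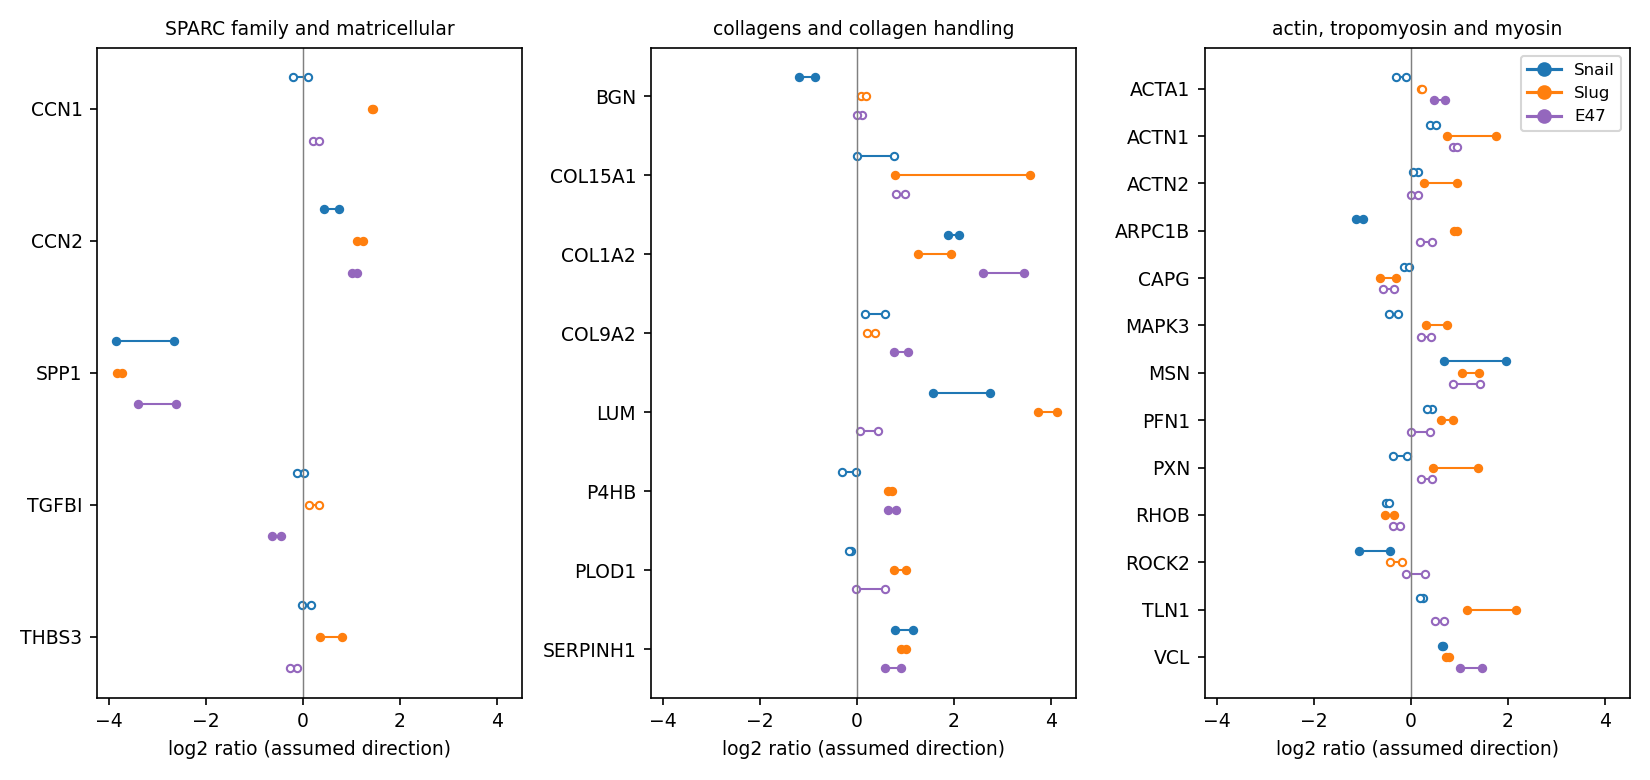
Log2 ratio of transfectant over control in the assumed direction (horizontal axis) for the genes of the matricellular, collagen and actin lists that passed in at least 1 transfectant; the 2 points joined by a line are samples 1 and 2, filled where the gene passed limma's adjusted p of 0.05 and open where it did not. COL15A1 in Slug spans 0.79 to 3.56, whereas CCN1 in Slug is at 1.43 and 1.45.

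Among mesenchymal markers, 2 of 11 rose and 2 fell in Snail, 5 of 12 rose and 1 fell in Slug, and 2 of 13 rose and 1 fell in E47, with medians of 0.08, 0.50 and 0.17. FN1 rose in all 3, by 1.01, 2.00 and 1.13 (adjusted p = 0.0161, 8.08e-04 and 0.0146), and MMP14, a membrane-bound metalloproteinase, fell in all 3, to -1.60, -0.97 and -1.73. ITGA5, a fibronectin receptor subunit, rose by 3.43 in Slug and TWIST1 by 1.83 in Slug and 1.99 in E47. ZEB1, a repressor of epithelial genes, rose by 0.89 in Slug, and THY1, a surface glycoprotein of fibroblasts, was at -0.82 in Snail. SNAI1, the gene of Snail, rose by 1.70 in Snail. Calls were lost for FN1 (0.73) and SNAI1 (1.04) without Snail sample 2, THY1 without either Snail sample (-0.83 and -0.81), FN1 (0.87) and TWIST1 (1.21) without E47 sample 2, TWIST1 without Slug sample 2 (1.48), and ZEB1 (0.52) without Slug sample 1.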

How the data were processed

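The authors deposited log2 ratios of 2-colour arrays; the log base was checked on the values, whose base 2 antilogs, for ratios below -0.5, were whole thousandths on each array (100%, tolerance 0.00006), and the centring on the array medians (-0.0634 to 0.0594). Scanner, background correction, normalization and numerator are not given in the sources used. Probe symbols came from the platform's annotation (8047 probes with 1 symbol, 276 with several, 4733 unnamed). Arrays were turned as stated, spots averaged per clone and clones per gene, and the 2 arrays of a numbered sample averaged to 1 replicate, for which both were needed. limma 3.58.1 in R 4.3.3 (tested on simulated data) fitted all 3 transfectants together without an intercept, with empirical Bayes moderation and Benjamini-Hochberg adjustment over all genes tested. Such a test against 0 holds nothing of the control's own spread.

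The members and gene lists were chosen with earlier results of these data known. Named were the members, the 5 genes nearest and most opposed to each in pattern, the 5 farthest apart between the Slug samples in each direction, and up to 4 called genes per list, transfectant and direction with the same sign on 4 arrays, besides genes of a contrast. Alternatives were single dyes, other scaling or centring, probes present on all arrays, a fit of each transfectant alone, a block by sample number and leaving samples out. No turning and medians over spots were run for the members alone. The planned count of motifs in promoters was not run.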

Additional observations from a re-analysis of the deposited data

Results flagged for a closer look

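The list genes below differed between transfectants by a test of the difference itself (limma, adjusted p under 0.05, n = 2 samples each). For SPARC and CALD1, chosen for their values, no such test is read. The counts stand beside the share of all genes and are not read as results about the lists. Between Snail and Slug 13 of 72 list genes differed, where 13.2% of all genes did. ARPC1B differed by -1.98, LUM by -1.77, ENG by -1.67, CCN1 by -1.49, TLN1 by -1.44, BGN by -1.16, PXN by -1.15, PLOD1 by -1.03, FN1 by -0.99, MAPK3 by -0.89, P4HB by -0.85 and THY1 by -0.80, all lower in Snail, and ARPC5, a subunit of the Arp2/3 complex, by 0.87, higher in Snail. Between Snail and E47 4 of 71 differed, where 2.57% of all genes did: ARPC1B by -1.37, BGN by -1.09, P4HB by -0.89 and LUM by 1.91. Between Slug and E47 2 of 73 differed, where 0.786% of all genes did: LUM by 3.68 and CCN1 by 1.17. Of these 19 differences 3 kept their call with each sample left out in turn: ARPC1B and CCN1 between Snail and Slug, and LUM between Slug and E47. All of them rest on the assumed sign of both transfectants; with the sign of 1 of them exchanged, the difference becomes a sum.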

How the results depend on the processing

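The means of SPARC and CALD1 in Snail and E47 stayed above 0 with either dye, other scaling or centring. With no array turned the means in Snail, Slug and E47 were -0.12, -2.42 and 2.54 for SPARC and -0.46, -1.30 and 0.96 for CALD1, while sample 1 minus sample 2 was 10.7, -3.51 and 4.92 for SPARC and 5.48, -1.32 and 3.23 for CALD1. With the arrays titled Cy5 alone the CALD1 mean in Slug was -0.41, the E47 samples were -0.17 apart for CALD1 and 0.95 for SPARC; with those titled Cy3 alone they were 1.44 and 0.30 apart. With arrays scaled to 1 spread SPARC was 3.78 apart in Slug and 0.19 apart in Snail, where it had been -0.25. Each member has 1 spot, so medians over spots change nothing for them.

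Counts of called genes in Snail, Slug and E47 (272, 885 and 210) were 568, 539 and 391 with each transfectant fitted alone, and 56, 372 and 42 with the arrays titled Cy3 alone; Slug had 576 with those titled Cy5 alone and 454 with arrays scaled, and E47 then had 361. The cause was not tested. Leaving out 1 sample of any transfectant gave 34 to 345 in Snail, 339 to 891 in Slug and 26 to 275 in E47. List genes called (14, 27 and 12) then ranged from 3 to 15, 14 to 26 and 4 to 16, and list genes that differed between transfectants (19) from 4 to 19, with 4 for the arrays titled Cy3 alone and 11 for those titled Cy5 alone. A left-out sample leaves its transfectant with 1, assumed to vary like the others. With the sample number as a replicate block the counts were 294, 903 and 231, and 14, 30 and 12 for the lists, but the calls of TGFBI in E47 (adjusted p = 0.0582 with limma) and CAPG in Slug (0.0525) were lost; the labels do not say that a number pairs samples, and the distances between samples 1 and 2 correlated across genes at 0.02 (Snail and Slug), 0.23 (Snail and E47) and -0.07 (Slug and E47). Of the called list genes, 0 changed direction under these settings, and 611 of their values kept the call and 126 lost it. Leaving all arrays unturned is not among these settings, since it was run for SPARC and CALD1 alone. How the direction of list genes depends on the turning is therefore not shown by this count. Centring each array moved the share of higher calls in Snail from 29.8% to 36.9%. Whether the spots of the members lay above background is not part of these values.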

Other observations

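EPCAM, the epithelial adhesion molecule, lay at least 2-fold apart between samples 1 and 2 of every transfectant. In Snail it had -0.18 in sample 1 and -3.00 in sample 2, in E47 -0.36 and -2.69, and in Slug -2.78 and -0.96, so the sample with the lower ratio was number 2 in Snail and E47 and number 1 in Slug. The highest Slug array, in sample 2, was at -0.11, so the -0.96 averages arrays that lay far apart. EPCAM did not pass limma in any transfectant. In E47, 2 of 13 mesenchymal markers were at least 2-fold apart, where 0.908% of all genes were. These were ITGA5 (0.53 and 2.69) and TWIST1 (1.21 and 2.77), higher in sample 2, the sample with the lower EPCAM ratio. The lowest ITGA5 array, in E47 sample 1, was at -0.49, so the 0.53 averages arrays that lay far apart. SPARC and CALD1 lay 0.62 and 0.63 apart between the E47 samples, in the other direction. In Slug 0 of 12 mesenchymal markers were 2-fold apart, and ITGA5 had 3.55 and 3.30 and TWIST1 1.48 and 2.19. In Snail 2 of 11 were, in opposite directions: SNAI1 had 1.04 and 2.37, and ENG -0.07 and -1.17. Whether these markers go with EPCAM was not tested.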
